A study of Mus musculus with 16 samples.

Results

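Pro-B cells of the fetal liver were compared with pro-B cells of the adult bone marrow of BALB/c mice. The comparison takes the sorted fraction B/C (Fr.B/C), which in the Hardy scheme holds the pro-B stage, and uses 8 of the 16 arrays of the series, 4 from each tissue. Each bone marrow sort pooled the femur and tibia marrow of 16 female adult mice. Each fetal liver sort pooled the livers of 1 litter at gestation day 16, on average 8 embryos. The labels list 4 sorts per tissue, and each sort also gave a sample of fraction A (Fr.A), the pre-pro-B stage, which is used here only to ask where the pro-B difference departs from the earlier one. All mice were of the same strain, with no transgene or treatment named, and the labels do not give the surface markers of the gates. Every sample was hybridised beside a common reference RNA of 6 cell lines, so a level below is a log2 ratio of sample over reference, and a difference is fetal liver minus bone marrow on that scale. Differences carry the model's standard error (SE), each group has n = 4 arrays unless stated, and a gene was called when the limma p-value, adjusted by Benjamini-Hochberg over 21711 genes, was under 0.05.

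B lymphocytes are made in the fetal liver before birth and in the bone marrow afterwards, and fetal progenitors give rise to more innate-like B-1 cells while adult progenitors mainly give rise to B-2 cells. At the pro-B stage the immunoglobulin heavy chain locus is rearranged by the RAG recombinase, and the product is tested with a surrogate light chain in the pre-B-cell receptor. The RNA-binding protein Lin28b, named in the title of the series with the transcription factor Arid3a, binds let-7 precursors and keeps them from becoming mature microRNAs. Mature let-7 represses messages such as those of Igf2bp1 to Igf2bp3 and Hmga2 through its seed.

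The seed is the stretch that pairs with those messages, and it is shown because it defines the let-7 family. RefSeq holds 10 mature mouse let-7 sequences in the table used here, and 9 of them share the seed GAGGUAG at bases 2 to 8, set in capitals below. The arrays measure messenger RNA, so no level of a mature let-7 is given.
mmu-let-7a-5p: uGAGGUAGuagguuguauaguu
mmu-let-7d-5p: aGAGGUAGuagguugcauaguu
mmu-let-7g-5p: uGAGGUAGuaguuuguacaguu
mmu-let-7j: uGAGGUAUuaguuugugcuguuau
The first 3 differ outside the seed, and mmu-let-7j is the 1 sequence whose seed, GAGGUAU, is another.

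Over all genes, 6199 of 21711 (28.6%) were called, 3010 of them higher in fetal liver (13.9%) and 3189 lower (14.7%). At least 2-fold apart were 915 genes (4.21%), 371 higher and 544 lower, and in 6425 genes (29.6%) the 4 arrays of each tissue did not overlap. With median centring in place of loess, 20.7% of 4225 called genes were higher, against 48.6% here. The median difference of all genes was 0.01. Median sample signals were 74.9 to 162 (intensity), and 52.9% to 65.2% of probes were well above background.

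Some facts about the arrays touch every result. Arrays 1 and 2 of a tissue stood apart from arrays 3 and 4: after removal of the dye effect, deviations from the group mean correlated across genes at 0.591 to 0.768 within these sets and at -0.775 to -0.858 between them. In fetal liver the sets were at least 2-fold apart in 278 genes whose arrays lay closer together within a set, and in bone marrow in 155. The labels list 4 sorts per tissue, and whether the arrays of a set, which carry opposite dyes, hold the same RNA cannot be told from the values. If they did, each group would have 2 independent samples, and the SE and p-values given with n = 4 would understate the error. With each set averaged and a set term 3652 genes were called, and with the set as a random block 3546. Each scan session held 1 tissue, and the effects of session and tissue cannot be told apart. In fetal liver arrays 1 and 2 were scanned in session 5 and arrays 3 and 4 in session 6, so array set and scan session cannot be told apart there. The bone marrow mice are labelled female, yet the Y-linked genes Eif2s3y, Kdm5d and Ddx3y were well above background on all 8 arrays. Eif2s3y had levels of 4.51, 4.88, 3.26 and 3.51 in bone marrow and of 4.10, 4.02, 5.04 and 4.47 in fetal liver, which overlap. None of these Y-linked genes was called (adjusted p = 0.617 for Eif2s3y, 0.307 for Kdm5d and 0.915 for Ddx3y), but the array sets differed. With arrays 3 and 4 alone Eif2s3y (1.37, adjusted p = 0.000108), Kdm5d (1.49, 6.55e-07) and Ddx3y (1.26, 2.95e-06) were called higher in fetal liver. With arrays 1 and 2 alone Ddx3y was called lower (-1.07, adjusted p = 0.00179). They were looked at after their values were seen, and what this means for the sex of the pools was not tested.

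Of Cd79a, Vpreb1, Pax5, Igll1 and Ighm, Cd79a alone gave a difference that could be read. Whether the sorts held the same stages in both tissues was not tested. Cd79a, a signalling chain of the B-cell receptor, stood at 2.88 to 3.07 in bone marrow and 2.51 to 2.72 in fetal liver and was not called (-0.36 ± 0.15, adjusted p = 0.088), but it was when replicate numbers were blocked (-0.36, adjusted p = 0.0181). It was also called lower with the 8 Fr.B/C arrays alone (adjusted p = 0.0156), with arrays 1 and 2 alone (0.0414) and with arrays 3 and 4 alone (0.0236). Cd79a was not called with sets averaged (adjusted p = 0.137) or with the set as a random block (0.197). Vpreb1, a part of the surrogate light chain, was saturated on all 8 arrays, so its difference cannot be read. Pax5, Igll1 and Ighm had no probe that met the filter and were not analysed here.

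The genes with the highest levels in fetal liver relative to bone marrow included Lin28b and messages that let-7 is known to repress. Of 12 measured members of the Lin28b and let-7 list, 8 were higher and none lower, with a median difference of 1.40 against 0.01 over all genes. This list was chosen with the title and earlier results in view and is not independent evidence of its direction. Lin28b itself had levels of -0.71, -0.67, -0.97 and -1.27 on bone marrow arrays 1 to 4 and of 2.96, 2.66, 2.79 and 2.61 on the fetal liver arrays. On no bone marrow array did its probe rise well above background, and on every fetal liver array it did, so the difference of 3.66 ± 0.15 (adjusted p = 1.17e-10) stands for at least 12.4-fold. A second Lin28b probe gave 0.37.

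The insulin-like growth factor 2 mRNA-binding proteins bind and stabilise messages, and all 3 were higher in fetal liver. Igf2bp1 lay between -0.05 and 0.18 in bone marrow, where no array had it well above background, and at 3.57, 3.21, 3.95 and 3.41 in fetal liver (3.50 ± 0.14, at least 10.7-fold). Igf2bp3 had levels of -0.55, -0.67, -1.34 and -1.26 in bone marrow and of 1.67, 1.57, 1.04 and 0.82 in fetal liver (2.23 ± 0.22, probes from 0.89 to 2.48). Igf2bp2 differed least, with bone marrow at -2.65, -2.59, -2.45 and -2.30 and fetal liver at -1.36, -1.46, -1.07 and -1.23 (1.22 ± 0.11). None of the 3 overlapped between tissues, and Igf2bp3 parted by array set within each tissue, with arrays 3 and 4 below arrays 1 and 2.

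Hmga2 and Hmga1 encode architectural chromatin proteins that bend AT-rich DNA. Hmga2 stood at 1.42, 1.63, 1.26 and 1.35 in bone marrow and at 4.96, 4.97, 5.57 and 5.40 in fetal liver, a difference of 3.81 ± 0.20 (adjusted p = 1.32e-09), while another of its probes gave 0.84. Hmga1 was higher by 1.57 ± 0.16, with its probe saturated on 3 of 4 fetal liver arrays. Arid3a, an AT-rich-binding factor of B cells, had levels of -1.04, -0.91, -0.82 and -0.90 in bone marrow and of 1.05, 1.09, 1.29 and 1.24 in fetal liver. The spread within each tissue was small beside the difference of 2.09 ± 0.12 (adjusted p = 5.69e-09). Its relative Arid3b was higher by 0.99 ± 0.14 and was not called with median centring (adjusted p = 0.0937). Among genes that process let-7, Dicer1, which cuts the hairpin (0.25 ± 0.13, adjusted p = 0.167), and the exonuclease Dis3l2 (-0.09 ± 0.13, adjusted p = 0.657) were not called. Drosha and Tut4 were not called in the main fit either, but some calls depended on the arrays used. With arrays 3 and 4 alone Dicer1 was called higher (0.36, adjusted p = 0.0104). With the 8 Fr.B/C arrays alone Drosha was called higher (0.40, adjusted p = 0.0143) and Tut4 lower (-0.37, adjusted p = 0.0354).

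**Figure D1:**
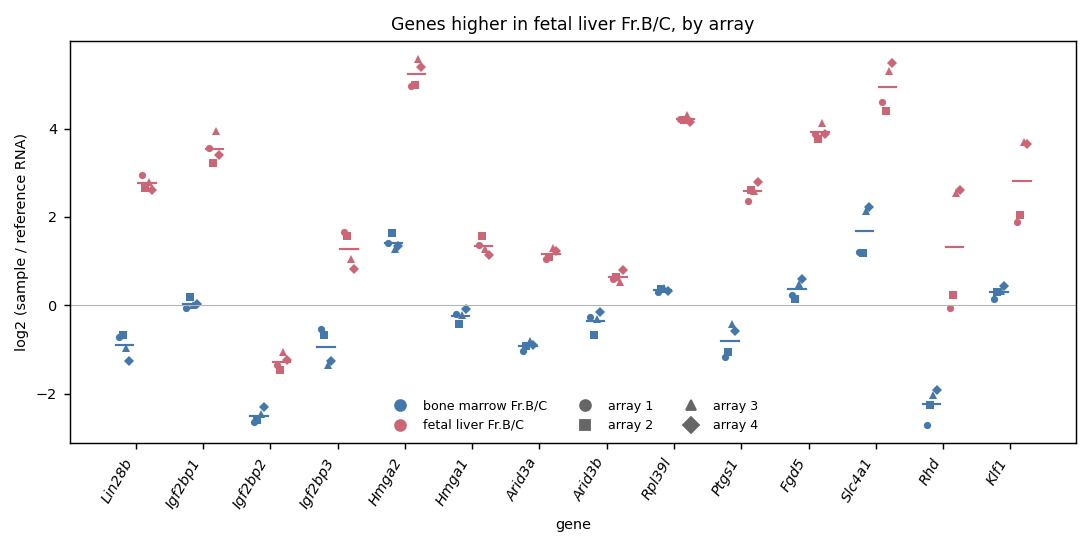
Log2 ratio of sample over reference (vertical axis) on each of the 8 Fr.B/C arrays for 14 genes that were higher in fetal liver; blue points are bone marrow, red points fetal liver, marker shapes arrays 1 to 4, and lines group means. Lin28b lies at -1.27 to -0.67 in bone marrow and 2.61 to 2.96 in fetal liver, whereas Rhd and Klf1 split within fetal liver into arrays 1 and 2 and arrays 3 and 4.

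Imprinted growth genes, which are expressed from 1 parental allele and are mostly active before birth, were higher in 8 of 17 measured cases and lower in 1, with a median of 0.18. The adaptor Grb10 rose from -2.10, -2.11, -2.25 and -2.04 in bone marrow to 0.40, 0.51, -0.13 and 0.04 in fetal liver (2.33 ± 0.15, adjusted p = 1.34e-08). Peg3, a zinc finger protein, was higher by 1.86 ± 0.10, Igf2r, which clears insulin-like growth factor 2, by 1.60 ± 0.11, and the cell cycle inhibitor Cdkn1c by 1.57 ± 0.10. Igf2 itself was not well above background in bone marrow and was higher by at least 1.37-fold (0.56 ± 0.11, adjusted p = 0.00101), a call lost with arrays 1 and 2 alone (0.0937). Meg3 (0.07 ± 0.09) and Phlda2 (-0.05 ± 0.08) were not called, and Gatm, an enzyme of creatine synthesis, was the member that fell (-1.04 ± 0.22).

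Among paralogues of ribosomal proteins, 4 of 13 measured members were higher and 2 lower (median -0.00). Rpl39l stood at 0.30, 0.37, 0.38 and 0.33 in bone marrow and at 4.15 to 4.31 in fetal liver, the arrays of a tissue nearly coinciding. Its difference was 3.87 ± 0.10 (adjusted p = 3.19e-12), although a second probe gave 0.58, and its parent gene Rpl39 was not called (0.02 ± 0.19). Rps4l was higher by 3.21 ± 0.15 while Rps4x was not called (-0.18 ± 0.16), and Rpl3l was lower by 2.01 (-2.01 ± 0.13) while Rpl3 was not called (-0.33 ± 0.15, adjusted p = 0.0471 without array 4 of bone marrow). Near-identical copies can share hybridisation, so these values are uncertain by gene.

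Other single genes with high differences had varied roles. Fgd5, a guanine nucleotide exchange factor known from endothelium and stem cells, had levels of 0.23, 0.15, 0.49 and 0.60 in bone marrow and of 3.87, 3.77, 4.12 and 3.87 in fetal liver (3.54 ± 0.13, adjusted p = 2.74e-11). Ptgs1, the cyclooxygenase of prostaglandin synthesis, rose from -1.17, -1.07, -0.42 and -0.57 to 2.37, 2.61, 2.59 and 2.79 (3.40 ± 0.20). Fstl1, a secreted follistatin-like protein, was not well above background in bone marrow and was at least 6.26-fold higher. The matrix protein Fbln1 (2.95 ± 0.14), the translation factor paralogue Mcts2 (3.14 ± 0.15, n = 3 fetal liver arrays) and the respiratory subunit Cox6a2 (2.70 ± 0.22) were also higher.

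The opposite end of the comparison was led by Dntt, which encodes terminal transferase, the enzyme that adds untemplated nucleotides at V(D)J junctions and is known to be scarce before birth. Its levels were 3.83, 2.49, 3.78 and 2.22 in bone marrow, where the probe was saturated on all 4 arrays, and -6.04, -5.48, -6.11 and -6.17 in fetal liver. The difference of -9.03 ± 0.42 (adjusted p = 9.63e-10) stands for at least 354-fold, and the probes of Dntt ranged from -9.03 to -3.70. Of 16 measured genes for cutting and joining V(D)J segments, 8 were lower and none higher (median -0.29).

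The recombinase genes moved far less than Dntt. Rag1 stood at 1.57, 1.65, 1.80 and 1.64 in bone marrow and at 1.16, 1.03, 1.11 and 0.84 in fetal liver (-0.63 ± 0.13, adjusted p = 0.00161), and the probes of Rag1 ranged from -0.69 to -0.29. The groups did not overlap, but with arrays 1 and 2 alone Rag1 was not called (adjusted p = 0.0585). Rag2 lay at 1.65 to 1.81 in bone marrow and 1.33 to 1.53 in fetal liver (-0.32 ± 0.10, adjusted p = 0.0287). Rag2 was no longer called when array 2, 3 or 4 of bone marrow or array 1, 2 or 4 of fetal liver was left out (adjusted p = 0.0507 to 0.0809) and with the array set as a block (0.194). Of the end-joining genes, the ligase Lig4 (-1.29 ± 0.20) and the Ku70 gene Xrcc6 (-1.27 ± 0.15) were lower, and the kinase gene Prkdc was not called (-0.11 ± 0.11).

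Transcription factors of the B lineage were called lower more often than higher. Of 30 measured, 10 were lower and 4 higher in fetal liver, with a median of -0.11. Over all genes 14.7% were lower and 13.9% higher, so the 4 higher members are near the share of all genes. Ebf1, the factor that specifies the lineage, had levels of 1.62, 1.89, 1.59 and 1.84 in bone marrow and of 0.45, 0.58, 1.04 and 0.92 in fetal liver. These do not overlap, and the difference was -0.99 ± 0.12 (adjusted p = 2.42e-05). Irf8, which acts with PU.1 in early B and myeloid cells, was nearly constant within a tissue, at 1.03, 0.92, 1.03 and 1.17 in bone marrow and -0.81, -0.73, -0.80 and -0.77 in fetal liver (-1.81 ± 0.08).

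The repressors Bach2 and Bcl6 were lower too, Bach2 with 0.80, 0.83, 0.76 and 0.93 in bone marrow against -0.72, -0.41, -1.51 and -1.04 in fetal liver (-1.75 ± 0.20) and Bcl6 by 1.59 (-1.59 ± 0.26). Elf1 (-0.86 ± 0.11, and -0.29 on its other probe), Myb (-0.73 ± 0.10), Bach1 (-0.58 ± 0.13) and the PU.1 gene Spi1 (-0.45 ± 0.09) were among the other lower members. Higher in fetal liver were, among others, the E-protein inhibitor Id1 (1.14 ± 0.16), the E protein Tcf12 (0.85 ± 0.12) and Irf4 (0.54 ± 0.09). With median centring Irf4 (adjusted p = 0.253), Tcf12 (0.0773) and Myb (0.0515) were not called. Tcf3 (0.05 ± 0.08), Ikzf3 (0.07 ± 0.10) and Foxo1 (0.14 ± 0.12) were not called.

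Of 28 measured genes of the pre-B-cell receptor and its signalling, 17 were lower and 2 higher, with a median of -0.54. The tyrosine kinase Zap70, better known from T cells, had levels of -0.70, -0.59, -0.82 and -0.67 in bone marrow and of -2.78, -2.20, -2.46 and -2.25 in fetal liver (-1.73 ± 0.12). The kinases Blk (-1.03 ± 0.12), Syk (-0.71 ± 0.13), Btk (-0.63 ± 0.09) and Lyn (-0.58 ± 0.12) and the adaptor Blnk (-1.41 ± 0.17) were lower, and so was the inhibitory receptor Cd72 (-1.94 ± 0.18). With sets averaged Lyn was not called (adjusted p = 0.0572). Against this direction, the scaffold Bank1 stood at -2.76, -2.56, -2.83 and -2.62 in bone marrow and at -0.53, -0.59, -1.07 and -1.19 in fetal liver (1.84 ± 0.17, and 0.52 on its other probe), and Vav2 was higher by 0.83 ± 0.17.

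**Figure D2:**
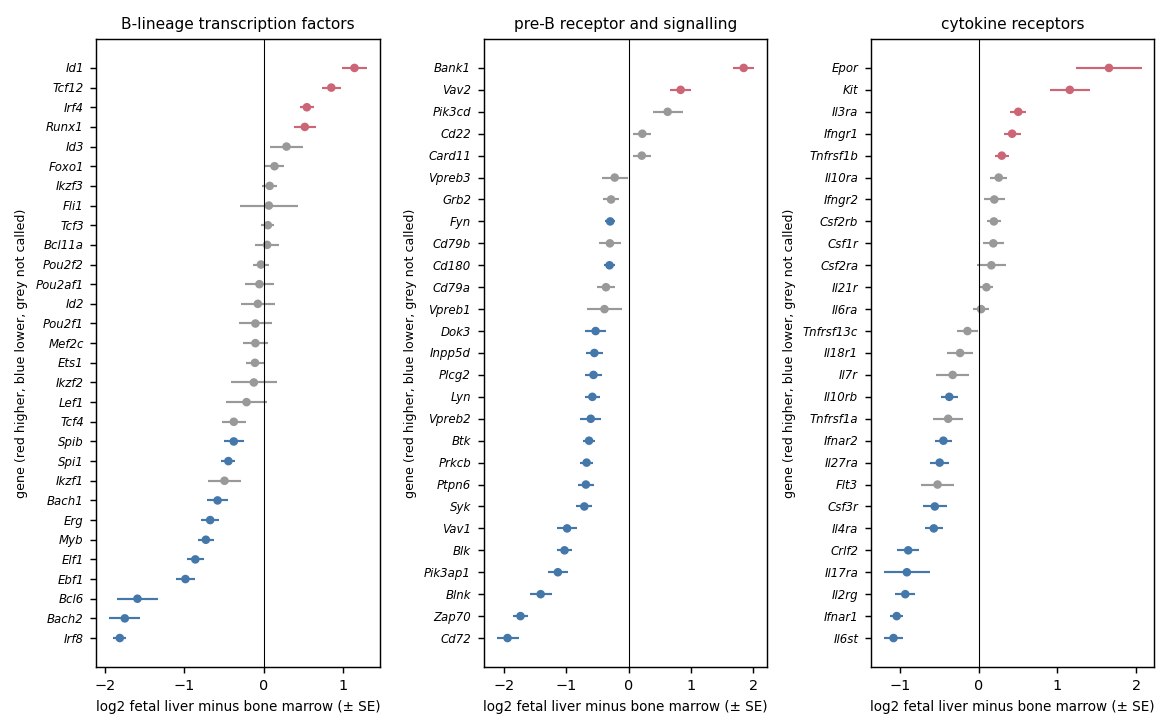
Fetal liver minus bone marrow difference in log2 ratio (horizontal axis, ± SE of the limma model) for members of the lists of B-lineage transcription factors, pre-B-cell receptor genes and cytokine receptors; red marks genes called higher in fetal liver, blue genes called lower and grey genes not called. Blue points prevail among the receptor signalling genes (17 of the 28 measured were called lower), and the factors spread to both sides.

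Surface proteins of early lymphoid cells were lower in 11 of 25 measured cases and higher in 2 (median -0.33). Ly6d, which marks lymphoid progenitors that have turned to the B lineage, had levels of 0.89, 1.00, 1.18 and 1.25 in bone marrow and of -2.42, -2.41, -2.18 and -2.10 in fetal liver (-3.36 ± 0.20, adjusted p = 7.11e-09). Cd93, the AA4.1 antigen of early B cells, stood at 2.33 to 2.63 in bone marrow and 0.72 to 1.08 in fetal liver (-1.62 ± 0.11, and -0.46 on its other probe). The CD43 gene Spn, which is used to sort pro-B cells, belongs to the homing list and was lower by 1.14 (-1.14 ± 0.14, and -0.52 on its other probe), and the CD45 gene Ptprc was lower by 1.15 (-1.15 ± 0.19). Cd24a, the heat stable antigen that pro-B cells carry, was not called (-0.09 ± 0.09).

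Of the Fc receptor and SLAM genes 9 of 17 were lower and 2 higher (median -0.36), among them Cd48 (-1.61 ± 0.09), Cd84 (-0.90 ± 0.10) and the inhibitory receptor Fcgr2b (-0.84 ± 0.07, probes from -0.84 to -0.32). With arrays scaled to the same spread Fcgr2b was not called (adjusted p = 0.111). Homing and adhesion genes were lower in 10 of 28 cases and higher in none (median -0.27). They included the sphingosine-1-phosphate receptor S1pr1 (-1.24 ± 0.13) and the chemokine receptor Ccr7 (-0.80 ± 0.11). Fcmr, the IgM Fc receptor, was lower by at least 5.03-fold and was not well above background in any fetal liver sample, and among the 13 measured markers of mature B cells 7 were lower and none higher (median -0.38), including the CD20 gene Ms4a1 (-0.74 ± 0.10) and Cd40 (-0.72 ± 0.10).

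Cytokine receptors were mixed, with 10 of 28 measured members lower and 6 higher (median -0.19). Il7r, the receptor chain that pro-B cells need for growth in mice, had levels of 1.00, 1.21, 0.73 and 0.92 in bone marrow and of 0.87, 0.90 and 0.15 on fetal liver arrays 1, 2 and 4, where array 3 gave no usable spot. The ranges overlapped and Il7r was not called (-0.33 ± 0.21, adjusted p = 0.262), but it was in the fit that blocked on replicate (-0.41, adjusted p = 0.00816). Its other probe gave -0.54, and with the mean of its probes Il7r was called lower (-0.44, adjusted p = 0.0152). With arrays 3 and 4 alone, where fetal liver array 3 gave no value, the difference was -0.75. It was not called with sets averaged (adjusted p = 0.0641) or with the set as a random block (0.245). The common gamma chain Il2rg (-0.93 ± 0.13) and the TSLP receptor gene Crlf2 (-0.90 ± 0.14) were lower. The stem cell factor receptor Kit stood at 3.15 to 3.43 in bone marrow and 4.41 to 4.51 in fetal liver (1.16 ± 0.26, adjusted p = 0.00312). With arrays scaled to the same spread the Kit call was lost (adjusted p = 0.0772), as it was with sets averaged (0.0505).

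Downstream of these receptors, 9 of 16 measured JAK-STAT genes were lower and 2 higher (median -0.51). Stat3 (-0.78 ± 0.12), Jak1 (-0.60 ± 0.10) and Stat2 (-0.57 ± 0.07) were among the lower members. The members that rose were both feedback inhibitors. Socs3 stood at -0.37, -0.56, -0.09 and 0.08 in bone marrow and at 1.43, 1.32, 1.81 and 1.66 in fetal liver (1.79 ± 0.17, adjusted p = 1.02e-06), and Socs2 was higher by 0.78 ± 0.13 (n = 3 fetal liver arrays).

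On 3 lists of the interferon response 45 measured genes were lower in fetal liver and 14 were not. Interferon receptors signal through JAK kinases to STAT proteins and IRF9, which bind the interferon-stimulated response element and switch on sensors of viral RNA, antiviral effectors and GTPases. The receptor genes Ifnar1 (-1.04 ± 0.08), Ifnar2 (-0.45 ± 0.11) and Ifnlr1 (-2.46 ± 0.16, outside the naming rule) were lower. Irf9 stood at 1.73, 1.93, 1.87 and 1.42 in bone marrow and at -0.67, -0.92, -0.65 and -0.72 in fetal liver (-2.48 ± 0.12), although its other probe gave -0.31. Of 18 sensors and regulators 13 were lower and none higher (median -1.03), including the RNA helicase genes Dhx58 (-2.35 ± 0.13) and Ifih1 (-1.55 ± 0.14). Irf3 (0.06 ± 0.13) and Irf2 (0.19 ± 0.21) were not called.

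Of 23 antiviral effectors 16 were lower and 2 higher (median -0.86). Oas1a, which makes the second messenger that activates RNase L, had levels of 2.30, 1.95, 2.26 and 1.83 in bone marrow and of -0.71, -0.72, -0.57 and -0.70 in fetal liver (-2.76 ± 0.09, adjusted p = 1.7e-11). Ifi44l lay at 3.85, 3.94, 3.86 and 4.46 in bone marrow and was not well above background in fetal liver, a difference of at least 17.1-fold (-4.19 ± 0.12). The membrane protein Ifitm3, which blocks viral entry, was lower by 2.98 (-2.98 ± 0.14). The larger of the rises was that of Slfn2 (1.47 ± 0.17), which keeps lymphocytes quiescent.

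The interferon-inducible GTPases and their neighbours were lower in 16 of 18 measured cases, with a median of -0.98, and none was higher. Tgtp1 stood at 4.31, 4.43, 4.45 and 4.46 in bone marrow and at -0.38, -0.23, -0.66 and -0.56 in fetal liver (-4.87 ± 0.14, adjusted p = 3.19e-12), while its other probe gave -0.43. Ifi47 had levels of 2.62, 2.64, 2.27 and 2.64 against -0.36, -0.35, -0.78 and -0.82 (-3.12 ± 0.12). Iigp1 (-2.25 ± 0.13), Igtp (-1.63 ± 0.09) and Irgm1 (-1.32 ± 0.15) were lower as well. The GTPases of a family share sequence, so single values may mix genes.

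Promoters were searched for the element that the pathway acts on. The core of the interferon-stimulated response element, taken as GAAA, then 2 bases of any kind, then GAAA again, was searched on both strands in the 250 bases before each RefSeq start (GRCm38.p6), and matches may overlap each other. It was present in 3.04% of 27025 windows, in 30 of 333 genes that were called lower and at least 2-fold apart (9.01%), in 4 of 215 that were higher (1.86%) and in 192 of 7653 not called (2.51%). Of the 45 interferon-list genes called lower, 31 had a window and 14 of these held the core (45.2%), against 4 of 12 in the interferon-list genes that were not called lower (33.3%). The gamma-activated core TTCNNNGAA was in 9 of the 31 (29%) and in 7.18% of all windows. A match is a description of the letters and not a bound site, and lists of this kind were drawn up from knowledge of the pathway. The 120 bases before the start are printed for 6 interferon-list genes called lower that hold the core there, those of smallest adjusted p. Genes on a chromosome that was left out of the printing were not eligible, whatever their promoters hold. The windows run in the direction of transcription, with the core and overlapping cores in capitals.
Tgtp1, chr11:48992247-48992366, minus strand: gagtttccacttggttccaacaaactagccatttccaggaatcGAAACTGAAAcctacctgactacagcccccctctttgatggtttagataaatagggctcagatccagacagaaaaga
Oas1a, chr5:120907526-120907645, minus strand: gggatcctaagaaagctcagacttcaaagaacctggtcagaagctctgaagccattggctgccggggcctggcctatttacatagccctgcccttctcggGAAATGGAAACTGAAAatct
Igtp, chr11:58199436-58199555, plus strand: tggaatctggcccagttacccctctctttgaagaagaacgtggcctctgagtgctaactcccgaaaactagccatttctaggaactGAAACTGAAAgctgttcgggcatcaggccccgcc
Irgm1, chr11:48871421-48871540, minus strand: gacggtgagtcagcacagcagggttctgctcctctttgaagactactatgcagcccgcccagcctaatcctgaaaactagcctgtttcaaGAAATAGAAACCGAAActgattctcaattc
Ifit1, chr19:34640769-34640888, plus strand: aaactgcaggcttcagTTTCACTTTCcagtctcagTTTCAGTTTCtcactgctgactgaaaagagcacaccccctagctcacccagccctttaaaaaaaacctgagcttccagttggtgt
Isg15, chr4:156200819-156200938, minus strand: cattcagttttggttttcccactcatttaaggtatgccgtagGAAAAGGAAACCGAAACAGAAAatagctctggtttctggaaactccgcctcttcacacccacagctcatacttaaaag
In Oas1a, Irgm1 and Isg15 several cores run into each other, and in Ifit1 they lie on the opposite strand. The levels of Ifit1 were 1.13, 1.43, 1.39 and 1.52 in bone marrow and -0.56, -0.37, 0.01 and 0.06 in fetal liver (-1.58 ± 0.22), and those of the ubiquitin-like Isg15 were 0.92, 0.83, 1.46 and 1.33 against -0.79, -0.72, -0.12 and 0.02 (-1.54 ± 0.24).

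Most measured genes of antigen presentation by both classes of the major histocompatibility complex were lower. Of 19 measured class I genes 14 were lower and none higher (median -0.94). The peptide transporter Tap1 stood at 1.16, 1.14, 1.02 and 0.73 in bone marrow and at -0.89, -0.86, -1.05 and -0.91 in fetal liver (-1.94 ± 0.16). The immunoproteasome subunit Psmb8 (-1.67 ± 0.08) and beta-2 microglobulin B2m (-1.86 ± 0.13, saturated on all bone marrow arrays and so at least 2.76-fold) were lower with it. Heavy chain genes such as H2-D1 (-4.56 ± 0.20) and H2-Q7 (-4.70 ± 0.16) share sequence and cannot be separated by gene. In class II, 12 of 17 were lower and 1 higher (median -0.70).

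The class II peptide editor H2-DMa had levels of 1.57, 1.49, 1.61 and 1.56 in bone marrow and of -0.59, -0.51, -0.27 and -0.25 in fetal liver (-1.96 ± 0.12), and the invariant chain Cd74 stood at 1.33, 1.28, 1.24 and 1.07 against -0.40, -0.62, -0.21 and -0.29 (-1.61 ± 0.11). H2-Aa was lower by 1.53 (-1.53 ± 0.17, and -0.42 on its other probe). Ciita, the master coactivator of class II genes, was not called (-0.18 ± 0.08, adjusted p = 0.136), and its probe was well above background on 3 bone marrow arrays and on no fetal liver array, so most of its values lie near background. It was called lower in the authors' deposited table (-0.76, adjusted p = 0.00814) and with the scanner's processed signals (-1.11, adjusted p = 0.00592).

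**Figure D3:**
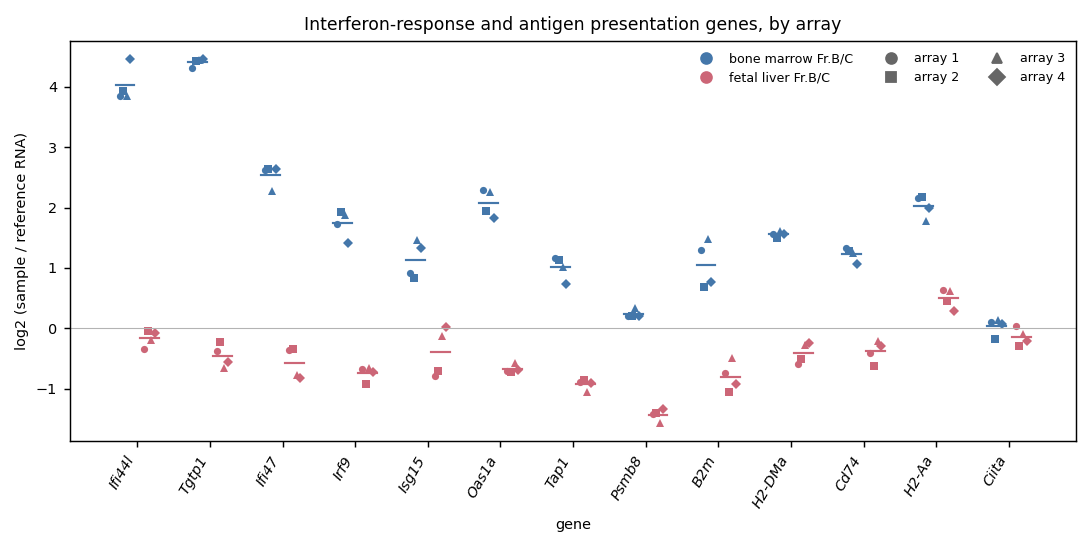
Log2 ratio of sample over reference (vertical axis) on each Fr.B/C array for 13 interferon response and antigen presentation genes; blue points are bone marrow, red points fetal liver, marker shapes arrays 1 to 4, and lines group means. In every panel except Ciita the red points lie below the blue ones.

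Innate sensing genes outside the interferon lists were lower or not called. Of 16 Toll-like receptor pathway genes 7 were lower and none higher (median -0.30), led by Ly86, the MD-1 partner of the receptor RP105, with 0.14, 0.01, 0.59 and 0.70 in bone marrow and -2.77, -2.61, -2.37 and -2.47 in fetal liver (-2.92 ± 0.17). The inhibitory kinase Irak3 (-1.81 ± 0.09, and -0.39 on its other probe) and Tlr2 (-1.39 ± 0.10) were lower. Of 18 NF-kappaB pathway genes 9 were lower and none higher (median -0.33), including Nfkb1 (-1.10 ± 0.20) and the inhibitors Nfkbia (-0.96 ± 0.11) and Tnfaip3 (-0.91 ± 0.12).

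Single genes that were much lower came from other pathways. The oestrogen receptor gene Esr1 had levels of 4.06, 4.41, 4.11 and 4.30 in bone marrow and lay between -0.13 and -0.02 in fetal liver, where no array had it well above background (at least 19.4-fold, -4.30 ± 0.12). Of 23 nuclear receptor genes 6 were lower and 1 higher, with a median of 0.01. Without array 3 or 4 of bone marrow 4 were lower and none higher, and with the set as a block 2 were lower and none higher. Lgals3bp, a secreted galectin-binding glycoprotein, stood at 0.15 to 0.63 in bone marrow and -3.82 to -3.46 in fetal liver (-4.06 ± 0.12). The signalling adaptor Grb7 (-3.87 ± 0.23) and the mitochondrial calcium-binding protein Efhd1 (-4.18 ± 0.19, but -0.36 on its other probe) were lower. In the eicosanoid list 5 of 16 members were lower and Ptgs1 alone was higher (median -0.10): the 5-lipoxygenase activating protein Alox5ap had 0.78 to 1.18 in bone marrow against -1.32 to -0.91 in fetal liver (-2.11 ± 0.11).

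Cell cycle genes differed by smaller amounts. Mitosis was represented by 30 genes, of which 11 were higher and 0 lower (median 0.27), among them the kinases Plk1 (0.90 ± 0.11) and Aurka (0.69 ± 0.09) and the survivin gene Birc5 (0.65 ± 0.08). Median centring left 6 mitotic genes higher. In the list of G1 regulators 8 of 28 were lower and 3 higher (median -0.13). The cyclin Ccnd2 stood at 0.91, 1.06, 0.92 and 1.07 in bone marrow and at -1.09, -0.70, -0.95 and -0.51 in fetal liver (-1.80 ± 0.12), Ccnd3 (-1.08 ± 0.13) and the inhibitor Cdkn1a (-1.34 ± 0.20) were lower, and Ccne1 (0.98 ± 0.12) was higher. Replication genes split 6 higher and 4 lower of 30 (median 0.09). These 10 calls were 6 without array 1 of bone marrow and 5 without array 2, and none was higher with the set as a block (1 lower) or with median centring (3 lower). The Bcl2 family had 4 higher and 3 lower of 16 (median 0.07), with Bcl2 lower (-0.85 ± 0.16, and -0.35 on its other probe) and Bcl2l1 higher (0.63 ± 0.16, not called with median centring, adjusted p = 0.17).

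Metabolic lists held few calls outside glycolysis. Of 24 glycolysis genes 8 were higher and 4 lower (median 0.22), and with the array set as a block 4 and 3. The glucose transporter Slc2a1 had levels of -2.09, -1.86, -1.87 and -1.64 in bone marrow and of -0.82, -0.49, 0.26 and 0.41 in fetal liver, where arrays 3 and 4 lay above arrays 1 and 2 (1.71 ± 0.28). The lactate exporter Slc16a3 was higher by 1.52 ± 0.18. In the one-carbon and amino acid list 5 of 21 were higher and none lower (median 0.09), led by asparagine synthetase Asns (1.57 ± 0.12). The 5 became 3 without array 1, 2 or 3 of bone marrow or array 3 of fetal liver, 2 with the array set as a block and 1 with median centring. In the sterol list 3 of 23 were higher and none lower (median 0.09). Without array 4 of fetal liver 1 sterol gene was higher, with median centring 1 was lower and none higher, and with arrays 3 and 4 alone 3 were higher and 4 lower. The shares called in the sterol (13%), one-carbon (23.8%), nuclear receptor (30.4%) and chromatin (30.8%) lists were near or below the 28.6% of all genes. The Notch (31.6%), DNA replication (33.3%) and stem cell factor (34.8%) lists were only a little above this share. Chromatin genes were even, 4 higher and 4 lower of 26 (median -0.05), with the DNA methyltransferase Dnmt3b higher (0.95 ± 0.13). Stem cell factors were lower in 7 of 23 cases and higher in 1 (median -0.17), Hoxb4 being lower (-0.54 ± 0.10) and Tal1 higher (1.87 ± 0.30). In the Notch list 5 of 19 were lower and 1 higher (median -0.13): Hes1, a Notch target, stood at 1.76 to 2.22 in bone marrow and -0.08 to 1.37 in fetal liver (-1.31 ± 0.22) and was not called with Cy5 alone (adjusted p = 0.0532).

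**Figure D4:**
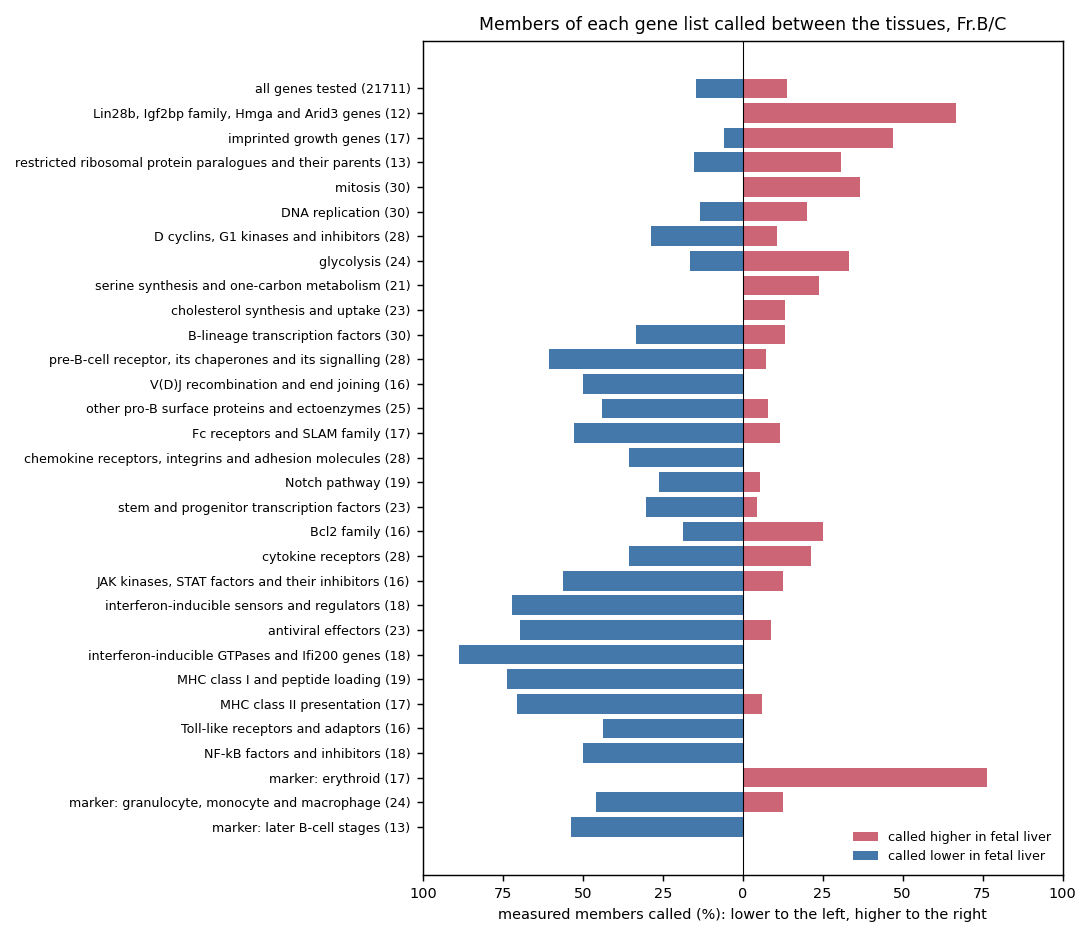
Percent of the measured members of each of 30 gene lists called lower (bars to the left) or higher (bars to the right) in fetal liver Fr.B/C, beside all genes (14.7% lower, 13.9% higher). Interferon and antigen presentation lists reach far to the left, and the Lin28b and let-7 list and the mitotic list reach to the right.

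Markers of some other cell types differed between the tissues, the erythroid list most often. In a sorted bulk sample, fewer cells of a type and less RNA per cell cannot be told apart. Of 17 measured erythroid genes 13 were higher in fetal liver and none lower (median 1.44), and their mean level was 0.0752 to 0.211 on the bone marrow arrays and 1.2 to 2.13 on the fetal liver arrays. Of these 17, 4 were above background on no bone marrow array. The blood group gene Rhd stood at -2.71, -2.25, -2.03 and -1.93 in bone marrow and at -0.07, 0.23, 2.54 and 2.60 in fetal liver (3.55 ± 0.67, not called with either dye alone). Its fetal liver levels split by array set, a split that the erythroid factor Klf1 shared, with 1.88 and 2.04 on arrays 1 and 2 against 3.70 and 3.65 on arrays 3 and 4. With Cy5 alone Klf1 was not called (adjusted p = 0.0541). The alpha-haemoglobin stabilising protein, Eraf in the files (3.57 ± 0.25), and the anion exchanger Slc4a1 (3.25 ± 0.34) were higher in both sets. The part of erythroid RNA in the results was not tested, and Tal1 and Slc2a1 above part by array set in the same way.

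Of the myeloid markers 11 of 24 were lower and 3 higher (median -0.58). Their mean level was 1.96 to 2.42 in bone marrow and 0.964 to 1.58 in fetal liver, and lysozyme Lyz2 was lower by 2.37 (-2.37 ± 0.21). Innate sensing and interferon genes are also expressed by myeloid cells, and the part of such cells in those results was not tested. Of 11 plasmacytoid dendritic cell markers 5 were lower and 1 higher (median -0.38), and of 11 basophil and mast cell markers 4 were lower and 1 higher (median -0.11), among them Mcpt8 (-1.90 ± 0.18). T-lineage markers were lower in 6 of 17 cases and higher in 1 (median -0.10) and NK markers lower in 2 of 13 (median -0.12). Of 7 measured hepatocyte genes 3 were higher and 1 lower (median 0.24), with mean levels of 0.00164 to 0.0838 and 0.0627 to 0.333. Without array 2 of fetal liver 1 was higher and 1 lower, and with the set as a block none was higher and 1 lower. In endothelial and stromal genes Kdr alone of 8 was called (2.05 ± 0.19, median -0.07), with 2 called without array 1 of fetal liver. In the megakaryocyte list 2 of 10 were higher (median 0.21), and 5 without array 4 of bone marrow. The shares called in the NK (15.4%), megakaryocyte (20%) and endothelial and stromal (12.5%) lists were below the 28.6% of all genes. Of the 13 NK genes 7 were well above background on no fetal liver array. With the scanner's processed signals, and also with the authors' deposited table, 5 NK genes were lower. In the plasma cell list 4 of 10 were higher and 1 lower (median 0.22). Immediate early genes were lower in 7 of 21 cases and higher in 1 (median -0.16), with Egr2 lower (-1.39 ± 0.17) and Jun higher (1.23 ± 0.21).

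The Fr.A samples of the same sorts were used to ask where the tissue difference of pro-B cells departs from that of pre-pro-B cells. The tissue difference itself differed between the fractions in 1620 of 21711 genes (7.46%, an interaction test in the same limma model), 969 of them more positive in Fr.B/C and 651 more negative. Blocking on the replicate number gave 2581 and blocking on the array set 493. Of the 137 genes that the naming rule took and that are plotted, 49 had an interaction call. Most of the 137 were taken by their Fr.B/C values, which favours a larger difference in Fr.B/C, so this count cannot be set against the share of all genes. The Igf2bp3 difference was 4.23 in Fr.A against 2.23 in Fr.B/C (interaction -1.998 ± 0.32, adjusted p = 0.00111), and Igf2bp2 by 2.96 and 1.22 (interaction -1.74 ± 0.16). Hmga2 and Rpl39l did the reverse, at 2.03 and 2.04 in Fr.A against 3.81 and 3.87 in Fr.B/C. Lin28b (3.40 in Fr.A, interaction adjusted p = 0.548) and Arid3a (1.94, 0.711) had no interaction call. Dntt was saturated on all bone marrow Fr.B/C arrays, so its difference cannot be compared between the fractions.

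Several genes were lower in fetal liver by more in Fr.B/C than in Fr.A. Fcmr differed by -0.44 in Fr.A against -2.35 in Fr.B/C (interaction -1.91 ± 0.12, adjusted p = 1.39e-06), and Grb7 by -1.28 and -3.87 (interaction -2.59 ± 0.32). Irf8 went from -0.69 to -1.81 and Zap70 from -0.55 to -1.73. Runx2, a Runt-family factor, was not called in Fr.A (0.21) and was lower in Fr.B/C (-2.03), and Hes1 was higher in Fr.A (0.73) and lower in Fr.B/C (-1.31, interaction adjusted p = 0.000956). Socs3 (0.04 in Fr.A), Slc16a3 (0.15) and Cox6a2 (0.40) were not called in Fr.A and were higher in Fr.B/C, and each had an interaction call. Runx2, Irf8 and Cox6a2 are also on the plasmacytoid dendritic cell list, where 6 of 11 measured genes had an interaction call, against 7.46% of all genes. The part of such cells in these values was not tested. Among antigen presentation genes, none of 19 measured class I genes had an interaction call, against 6 of 17 in class II. Over all genes 7.46% had such a call, so the class I count is near that share. Whether the classes differ was not tested. In class II, Cd74 was lower by more in Fr.A (-2.89) than in Fr.B/C (-1.61). The class I gene Tap1 (-1.53 in Fr.A, interaction adjusted p = 0.33) and the class II gene H2-DMa (-1.93, 0.948) had no interaction call.

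**Figure D5:**
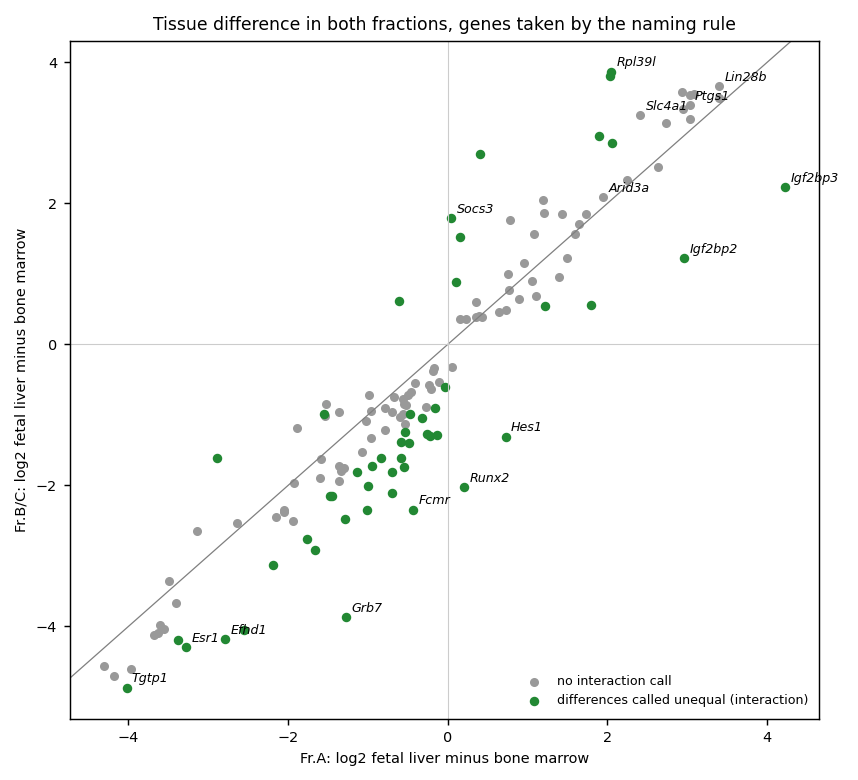
Fetal liver minus bone marrow difference in log2 ratio, with Fr.A on the horizontal axis and Fr.B/C on the vertical axis, for 137 genes taken by the naming rule, without Dntt; green points are the 49 genes with an interaction call, and the diagonal marks equal differences. Igf2bp3 and Igf2bp2 lie below the diagonal, and Hmga2, Rpl39l, Socs3 and Cox6a2 above it.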

How the data were processed

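Dual-colour arrays of 8 Fr.B/C samples were compared within a fit of all 16 arrays. Per the file headers, Feature Extraction 8.5.1.1 wrote the deposited scanner files, which hold mean and background intensity for both dyes, processed intensity signals and a log10 ratio. The authors also deposited a table of log2 ratios (array medians -0.00726 to 0.0201, r = 0.930 to 0.951 with the ratios computed here), made by a method that is not stated in those files or the labels. limma is named in the submitters' processing notes.

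Intensities were corrected with normexp (offset 50), which compresses dim genes' folds, and each array was loess-normalized (limma 3.58.1, R 4.3.3). Ratios were turned to sample over reference, since the sample was in Cy5 on arrays 1 and 3 and in Cy3 on 2 and 4. Control and outlier spots were left out. A probe was kept if well above background on 3 of 4 arrays of any group and usable on 12 arrays (27522 of 41174), and a gene is its brightest kept probe (14370 of 21711 with a symbol). Of all probes 27183 were named and 13984 were not. The limma model had 4 group means and a dye term (11 residual degrees of freedom), with Benjamini-Hochberg adjustment. It was tested on simulated data with independent arrays, which leave out the likeness of arrays within a set and so cannot show the error rate of the real arrays. A probe below background on all arrays of a group, or saturated on all, gives a lower bound of fold, set against the lowest signal well above background. Nothing in the labels says more than that sorts were separate, and p-values measure only the spread between these arrays, whose number limits precision.

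Named genes are the 15 highest and 15 lowest, up to 3 called members per list and a fixed set, 142 in all, of which some are not reported here. Other list members and the sex-linked genes in the text were chosen after their values were seen. Members and lists were chosen with earlier results of these data known. Replicate numbers were checked for pairing: after removal of the dye effect, same-numbered bone marrow and fetal liver arrays deviated together at r = 0.482, 0.276, 0.296 and 0.318. Differently numbered arrays of the tissues were not set beside these values, so they do not show that the arrays are pairs. Alternatives covered background correction, normalization, filters, probes, dyes, array sets, scan sessions, blocks and left-out arrays.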

Additional observations from a re-analysis of the deposited data

Results flagged for a closer look

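Of the 137 genes taken by the naming rule and reported here besides Dntt, 49 had a difference between fetal liver and bone marrow that itself differed between Fr.B/C and Fr.A (interaction test in limma, adjusted p under 0.05). The rule took most of the 137 by their Fr.B/C values, which favours a larger difference in Fr.B/C than in Fr.A. The 49 therefore cannot be set against the 7.46% of all genes with such a call. The values below are the Fr.B/C difference minus the Fr.A difference on the log2 scale, ± SE, with 4 arrays in each of the 4 groups. Lower in fetal liver by more in Fr.B/C were these interferon and innate sensing genes: Ifi44l -0.81 ± 0.16, Ifi47 -0.93 ± 0.18, Ifnar1 -0.72 ± 0.11, Irak3 -0.67 ± 0.12, Irf8 -1.12 ± 0.12, Irf9 -1.19 ± 0.17, Ly86 -1.25 ± 0.24, Oas1a -0.99 ± 0.13, Oasl1 -0.71 ± 0.14, Sp100 -0.68 ± 0.12, Tgtp1 -0.85 ± 0.19, Tlr2 -0.81 ± 0.14 and Tnfaip3 -0.74 ± 0.16. Lymphoid surface, signalling, repair and regulatory genes that moved the same way were Btg2 -0.52 ± 0.12, Cd48 -0.76 ± 0.13, Cd93 -1.03 ± 0.16, Egr2 -0.90 ± 0.25, Fcmr -1.91 ± 0.12, Lat -0.78 ± 0.21, Lig4 -1.15 ± 0.28, Nrarp -0.57 ± 0.17, S1pr1 -0.70 ± 0.18, Xrcc6 -1.005 ± 0.22, Zap70 -1.19 ± 0.16 and Zfpm1 -1.07 ± 0.21. So did Alox5ap of the eicosanoid list (-1.41 ± 0.16) and Prss34 of the basophil and mast cell list (-1.34 ± 0.26). The remaining genes of that kind were Efhd1 -1.39 ± 0.27, Esr1 -1.01 ± 0.17, Grb7 -2.59 ± 0.32, Lgals3bp -1.51 ± 0.17 and Rpl3l -1.01 ± 0.18. Lower in fetal liver by less in Fr.B/C were Cd74 1.27 ± 0.15 and Prf1 0.56 ± 0.16. 

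Higher in fetal liver by more in Fr.B/C were Cox6a2 2.30 ± 0.30, Cth 0.78 ± 0.20, Fbln1 1.06 ± 0.19, Fstl1 0.79 ± 0.17, Hmga2 1.78 ± 0.28, Rpl39l 1.83 ± 0.14, Slc16a3 1.37 ± 0.25 and Socs3 1.74 ± 0.24. Higher by less in Fr.B/C were Igf2bp2 -1.74 ± 0.16, Igf2bp3 -1.998 ± 0.32, Irf4 -0.68 ± 0.13 and Mzb1 -1.23 ± 0.14. The sign of the tissue difference was opposite in the fractions for Ahsg 1.23 ± 0.23, Hes1 -2.03 ± 0.32 and Runx2 -2.23 ± 0.33, some of which were not called in Fr.A. 

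In 8 of 274 groups of 4 arrays examined the sample farthest out stood apart from the others by a gap wide beside the group's whole range. Chance gives such a distance in about 1 of 20 groups of independent arrays. The arrays of a group fall into sets that resemble each other within, so these 8 cannot be set against that rate. Birc5 was at -0.32 on bone marrow array 2, with the other arrays at -0.12 to -0.09. H2-Ob was at -0.71 on fetal liver array 1, with the other arrays at -0.50 to -0.48. H2-Ob was at 0.32 on bone marrow array 3, with the other arrays at 0.15 to 0.17. Ifi44l was at 4.46 on bone marrow array 4, with the other arrays at 3.85 to 3.94. Ifi47 was at 2.27 on bone marrow array 3, with the other arrays at 2.62 to 2.64. Oas1a was at -0.57 on fetal liver array 3, with the other arrays at -0.72 to -0.70. Rps4l was at 6.34 on fetal liver array 1, with the other arrays at 5.66 to 5.74. Rrm1 was at 0.21 on bone marrow array 3, with the other arrays at 0.64 to 0.69.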

How the results depend on the processing

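No named gene that was called changed direction under any alternative run. Against 6199 called genes, Cy5 alone gave 1656 and Cy3 alone 1518 (fewer arrays), the array sets averaged 3652 (3551 of them shared) and the set as a random block 3546, all shared. Against 915 genes at least 2-fold apart, the scanner's processed signals gave 2300 genes and the authors' deposited ratios gave 1837, and the cause was not tested. The interaction count of 1620 moved most. It was 1069 with processed signals, 422 with median centring, 918 with arrays scaled, 32 with Cy5 alone, 10 with Cy3 alone, 250 with sets averaged, 493 with the set as a block, 715 with arrays 1 and 2 alone, 6793 with arrays 3 and 4 alone and 2942 with the scan session as a block. The causes of these moves were not tested. With the replicate number as a block the counts were 7505, 927 and 2581, though the labels do not pair bone marrow and fetal liver sorts by number. Of 226 genes looked at, Il7r, Cd79a, Enpep, Tut4 and Xrcc5 became called and none lost its call. Leaving out each array in turn gave 4868 to 5864 called genes, 882 to 984 at least 2-fold apart and 1162 to 1478 interaction calls. Single dyes, with 4 of the 8 arrays, ended the calls of 52 (Cy5) and 49 (Cy3) of these genes, and median centring those of 21. Counts of list members also moved: with the set as a block glycolysis genes numbered 4 higher and 3 lower, and with median centring mitotic genes 6 and 0. With the set as a block 2 JAK-STAT genes were higher and 5 lower, 7 Fc receptor and SLAM genes and 6 homing genes were lower and none higher, and with sets averaged 3 cytokine receptors were higher and 7 lower. With median centring 2 Bcl2 family genes were lower and none higher, and with the replicate block 4 immediate early genes were higher and 9 lower. Dim probes limit small differences.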
